A study of Saccharomyces cerevisiae with 6 samples.

Results

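Lysine synthesis in Saccharomyces cerevisiae was followed through 9 genes: LYS20, LYS21, LYS4, LYS12, LYS2, LYS5, LYS9 and LYS1, which encode the enzymes of the pathway, and LYS14, which encodes its dedicated activator. They were found by name, or by the symbol of their locus tag, and they matched 10 of the 5703 features measured, because LYS2 named a second, short feature. Messenger RNA was sequenced from 2 strains, each as 3 cultures. In IMF17 a neochromosome, which is a synthetic chromosome added to the cell, is the sole source of the glycolytic enzymes. In IMX2109 they come from the native genome. Each strain came from a frozen stock, was transferred to fresh selective minimal glucose medium, and was grown with air in 500 mL flasks holding 100 mL to an optical density of 8, described as mid-exponential phase. The sources used here do not say whether the medium held lysine, what further alleles the strains carry or share, or how fast the strains grew. The RNA is of whole cultures, so fewer cells that express a gene and less RNA per cell cannot be told apart.

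Fungi make lysine by the alpha-aminoadipate route, which starts from alpha-ketoglutarate and acetyl-CoA and has no counterpart in animals, which must eat lysine. The early steps lengthen alpha-ketoglutarate by one carbon with the same chemistry that the citric acid cycle and leucine synthesis use, and the later steps reduce alpha-aminoadipate and build lysine through the intermediate saccharopine. In yeast the route is held back by lysine itself at the first enzyme, and its genes are switched on by Lys14 together with an intermediate of the pathway and by Gcn4, the general activator of amino acid synthesis.

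The IMF17 libraries held 14999412 to 15914985 counted reads and the IMX2109 libraries 14696540 to 18801158. The strain labels were checked on 108 neochromosome features outside the yeast annotation, which took 810391 reads in IMF17 and 9 reads in IMX2109. Features with URA3, kanMX, HIS3, LEU2, TRP1 or PYK1 in their name, among others, had been left out of this set. Nuclear features here are those on the numbered chromosomes, so reads of the neochromosome fall outside the nuclear share. Both strains were counted on the IMF17 assembly, so any IMX2109 reads counted on gene models of its neochromosome fall outside too. Nuclear features took 84.6 ± 0.323% of all reads in IMF17, against 90.4 ± 0.519% in IMX2109 (SD, n = 3). Levels are given as FPKM, reads scaled by feature length and by the library's counted reads. The lower nuclear share thus lowers the FPKM of nuclear genes in IMF17 without any other change, and all 9 lysine genes lie on nuclear chromosomes. Among the replicate libraries, IMX2109 replicate 3 stood farthest from its own strain, with a chi-square per degree of freedom over features of 18.1 and 8.52 against replicates 1 and 2, where the other pairs gave 3.15 to 7.22.

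Transcripts of lysine synthesis were lower in IMF17. Of the 9 genes, 7 passed the test as lower and 0 as higher, and 2, LYS2 and LYS5, did not pass (limma on log2(FPKM + 1), adjusted over 5425 features, threshold 0.05). Over all tested features 25.3% were lower and 12.1% higher by the same test. The 3 widest falls were in LYS1, LYS20 and LYS9, by 1.47-fold, 1.36-fold and 1.33-fold as ratios of mean FPKM, and the other 4 fell by 1.17-fold to 1.21-fold. The median log2 fold change of the 9 genes was -0.25, against -0.07 over all tested features. In the same 7 genes the 3 IMF17 cultures lay below the 3 IMX2109 cultures without overlap, where 35.1% of tested features lay apart in that direction. None of the 9 was higher at an unadjusted p under 0.05 (0 genes), and voom on recovered reads also called 0 higher. LYS2 had an unadjusted limma p of 0.0404 and LYS5 one of 0.204.

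**Figure D1:**
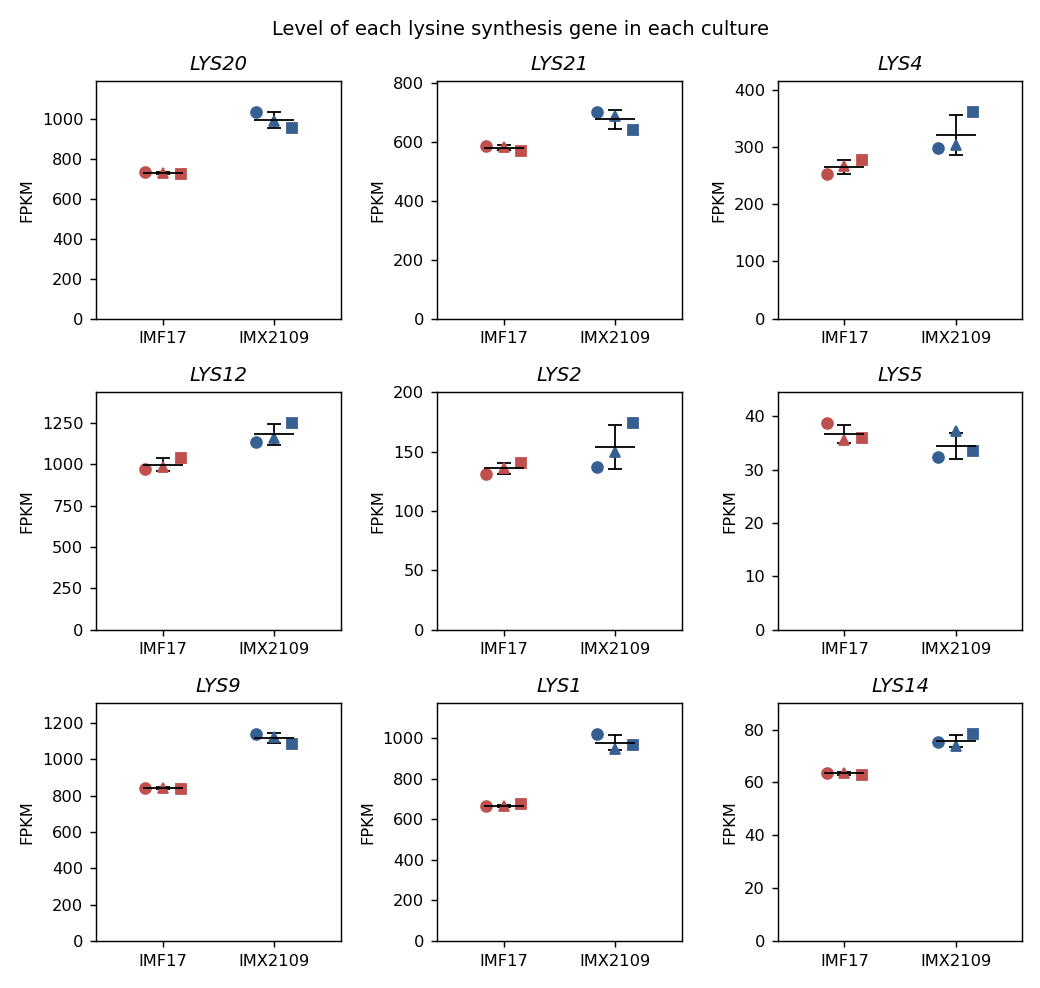
Level in FPKM of the 9 lysine synthesis genes in each culture (circle, replicate 1; triangle, replicate 2; square, replicate 3), with the mean and SD of each strain as a bar and whiskers; every axis starts at 0. The cultures of the strains do not overlap in 7 genes and overlap in LYS2 and LYS5.

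The pathway opens with homocitrate synthase, which joins acetyl-CoA to alpha-ketoglutarate and is encoded by the paralogs LYS20 and LYS21. LYS20 (YDL182W, chromosome 4, 133662 to 134948 on the IMF17 assembly) stood at 734, 729 and 727 FPKM in the IMF17 cultures and at 1037, 993 and 958 FPKM in the IMX2109 cultures. All IMF17 values lay well under the lowest value of IMX2109, and they were closer together than those of IMX2109. The means were 730 ± 3.81 and 996 ± 39.8 FPKM (SD, n = 3), a log2 fold change of -0.45 ± 0.04 (SE, limma adjusted p = 6.36e-06).

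LYS21 (YDL131W, chromosome 4, 227597 to 228919) was expressed below LYS20 in both strains, with 586, 581 and 570 FPKM in IMF17 and 700, 686 and 639 FPKM in IMX2109. Its cultures also did not overlap between strains, but the gap between the highest IMF17 and the lowest IMX2109 culture was narrower than in LYS20. It fell by 0.22 ± 0.04 on the log2 scale (SE, limma adjusted p = 0.002). That call was lost when libraries were rescaled by median ratio (log2 fold change -0.15, limma adjusted p = 0.0658) or on nuclear reads (-0.12, limma adjusted p = 0.0586). The paralogs are similar in sequence, so reads may have been exchanged between them, and the sources used here do not say how the authors treated such reads.

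The balance between the paralogs also differed. LYS20 made up 55.6%, 55.6% and 56.1% of their joint FPKM in IMF17 and 59.7%, 59.1% and 60.0% in IMX2109. Every IMF17 culture lay below every IMX2109 culture, so that the mixture held relatively more LYS21 in IMF17, with means of 55.8 ± 0.255% and 59.6 ± 0.419% (SD, n = 3). An exact permutation test (two-sided) gave p = 0.1, the lowest value that groups of 3 and 3 allow.

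LYS4 and LYS12 encode the enzymes that follow, homoaconitase and homoisocitrate dehydrogenase, which carry homocitrate to alpha-ketoadipate in the mitochondrion. LYS4 (YDR234W, chromosome 4, 908976 to 911057) had 252, 266 and 277 FPKM in IMF17 and 298, 302 and 361 FPKM in IMX2109. The strains did not overlap, and IMX2109 replicate 3 stood above the other cultures of its strain. LYS4 fell by 0.27 ± 0.07 on the log2 scale (SE, limma adjusted p = 0.0101), a call lost after rescaling on nuclear reads (log2 fold change -0.17, limma adjusted p = 0.0722) and without a filter on low values (-0.27, limma adjusted p = 0.0535).

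LYS12 (YIL094C, chromosome 9, 185360 to 186475) was the most abundant of the 9 transcripts in both strains, with 969, 984 and 1041 FPKM in IMF17 and 1132, 1161 and 1249 FPKM in IMX2109. The cultures of the strains did not overlap, and replicate 3 was the highest of each strain. LYS12 fell by 0.24 ± 0.05 on the log2 scale (SE, limma adjusted p = 0.00214).

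Once an aminotransferase has made alpha-aminoadipate, the next enzyme among the 9 genes is alpha-aminoadipate reductase. It is encoded by LYS2 and becomes active only after Lys5, a phosphopantetheinyl transferase, attaches its cofactor. These were the genes that did not pass. LYS2 (YBR115C, chromosome 2, 459659 to 463837) had 131, 136 and 141 FPKM in IMF17 and 137, 150 and 174 FPKM in IMX2109. The lowest IMX2109 culture lay inside the range of IMF17, and the spread in IMX2109 was the wider (136 ± 4.93 against 154 ± 18.6 FPKM, SD, n = 3). The log2 fold change was -0.17, with a 95% interval from -0.33 to -0.01 before adjustment (limma adjusted p = 0.0904). Without IMX2109 replicate 1, which was the lowest culture of its strain, LYS2 passed (log2 fold change -0.25, limma adjusted p = 0.0141), and without IMX2109 replicate 3 it was at -0.08 (limma adjusted p = 0.268).

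LYS5 (YGL154C, chromosome 7, 230641 to 231459) was the least abundant of the 9, with 38.7, 35.5 and 35.8 FPKM in IMF17 and 32.4, 37.1 and 33.6 FPKM in IMX2109. The cultures overlapped, and the value of LYS5 was the only positive log2 fold change among the 9 genes, at 0.09 with a 95% interval from -0.06 to 0.24 (limma adjusted p = 0.315). These levels rest on 404 to 549 reads a library, the smallest numbers of the 9 genes.

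The other feature named LYS2, 282 bases long on chromosome 7 (86654 to 86935), lies wholly inside VRG4, on the opposite strand, and carries the locus tag of the chromosome 2 gene. Its reads numbered 5 to 14 in the IMF17 libraries and 4 to 12 in those of IMX2109, and its cultures overlapped. It did not pass (log2 fold change 0.43, limma adjusted p = 0.207), except when IMF17 replicate 2 or IMX2109 replicate 2 was left out (limma adjusted p = 0.047 and 0.0493). VRG4 itself averaged 356 FPKM in IMF17, against 409 in IMX2109, and whether the few reads come from VRG4 was not tested. This feature was not counted among the 9 genes, and no gene model overlapped any of the 9.

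LYS9 and LYS1 encode the saccharopine dehydrogenases that close the pathway. Lys9 forms saccharopine from the semialdehyde of alpha-aminoadipate and glutamate, and Lys1 splits saccharopine into lysine and alpha-ketoglutarate. LYS9 (YNR050C, chromosome 14, 714427 to 715767) had 844, 845 and 836 FPKM in IMF17 and 1138, 1126 and 1086 FPKM in IMX2109. The IMF17 cultures lay close together, and all were far below those of IMX2109. The log2 fold change was -0.41 ± 0.04 (SE, limma adjusted p = 6.39e-06).

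LYS1 (YIR034C, chromosome 9, 418560 to 419681) showed the widest difference of the 9 genes. It stood at 663, 664 and 673 FPKM in IMF17 and at 1018, 946 and 967 FPKM in IMX2109. The strains were clearly apart, with means of 667 ± 5.30 and 977 ± 37.5 FPKM (SD, n = 3) and a log2 fold change of -0.55 ± 0.04 (SE, limma adjusted p = 1.03e-06). Ordered by log2 fold change from the lowest, LYS1 was at place 22 of 5425 features, LYS20 at 61 and LYS9 at 92, while LYS4, LYS14, LYS12 and LYS21 were between 414 and 739.

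LYS14, the activator (YDR034C, chromosome 4, 509169 to 511541), had 63.6, 63.6 and 62.9 FPKM in IMF17 and 75.1, 73.6 and 78.2 FPKM in IMX2109. The values of each strain were tight and did not overlap. LYS14 fell by 0.25 ± 0.05 on the log2 scale (SE, limma adjusted p = 0.00199). The log2 fold changes of the 8 enzymes ran from -0.55 for LYS1 to 0.09 for LYS5.

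**Figure D2:**
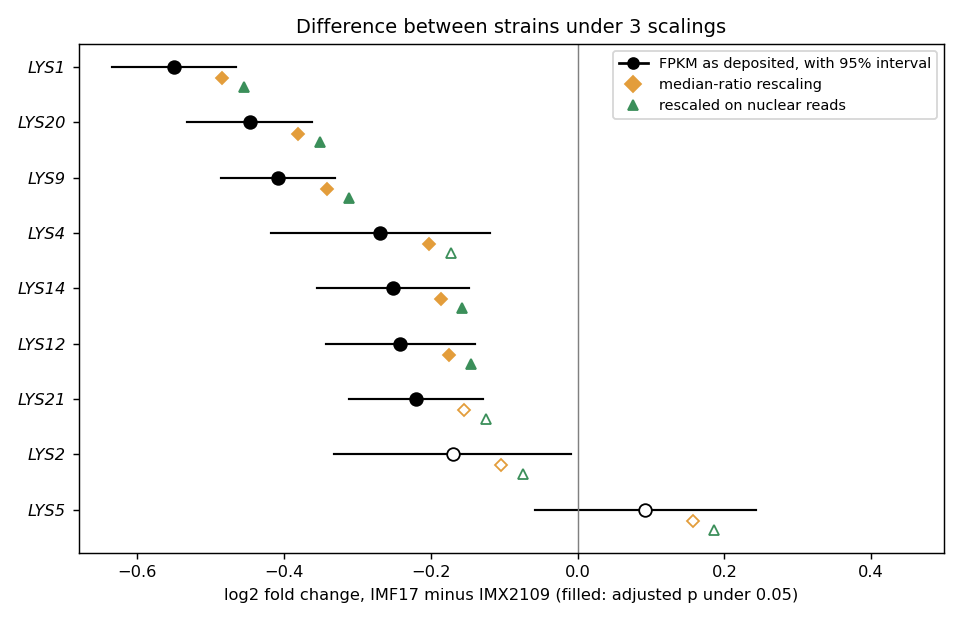
Log2 fold change of each of the 9 genes, IMF17 minus IMX2109, on log2(FPKM + 1) as deposited (circles, with the 95% interval), after median-ratio rescaling (diamonds) and after rescaling on nuclear reads (triangles); filled symbols have a limma adjusted p under 0.05. LYS1, LYS20, LYS9, LYS14 and LYS12 are filled under all 3 scalings, LYS4 loses its call on nuclear reads and LYS21 under both rescalings.

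Scaling set how many of the 9 were called. After median-ratio rescaling 6 were lower and 0 higher, where 11.8% of all tested features were lower and 16.3% higher. After rescaling on nuclear reads 5 were lower and 0 higher, where 8.83% were lower and 18.9% higher. LYS1, LYS20, LYS9, LYS12 and LYS14 were called in each of the 3, and on nuclear reads LYS1 was at -0.45, LYS20 at -0.35 and LYS9 at -0.31 (log2 fold change). The rescalings moved the median log2 fold change of all features by 0.06 and 0.09. The 9 genes kept the sign of their log2 fold change under both.

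Summed over the 8 enzymes, IMF17 reached 4253 ± 42.4 FPKM and IMX2109 5454 ± 48.2 FPKM (SD, n = 3), 1.28-fold apart. Their share of all summed FPKM was 0.440 ± 0.00485% in IMF17 against 0.564 ± 0.0101% in IMX2109, or, of the nuclear features alone, 0.519 ± 0.00438% and 0.618 ± 0.00857%. The cultures of the strains did not overlap in any of these sums.

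Because FPKM is scaled by length, the levels of the genes can be set in order. In IMF17 the order from the highest was LYS12, LYS9, LYS20, LYS1, LYS21, LYS4, LYS2, LYS14 and LYS5, and no neighbouring genes overlapped in their 3 cultures. IMX2109 had the same order. There, LYS12 overlapped with LYS9 and LYS20 with LYS1, so those neighbours did not differ beyond their spread. LYS12 ranked 150 among the 5703 features of IMF17 and 126 in IMX2109, and LYS5 ranked 3488 and 3629.

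Within a strain the genes did not vary alike. In IMX2109, replicate 3 was the highest culture for LYS2, LYS4, LYS12 and LYS14, by 0.18, 0.18, 0.08 and 0.05 above the strain mean of log2(FPKM + 1), and the lowest for LYS21, LYS20 and LYS9, at -0.08, -0.06 and -0.04. In IMF17 replicate 3 was likewise the highest for LYS4, LYS12 and LYS2, at 0.06, 0.06 and 0.05, and the lowest for LYS21, LYS9 and LYS20, though by no more than 0.02. LYS14 and LYS1 did not follow this, since LYS14 was lowest in IMF17 replicate 3, at -0.01, and LYS1 was highest there, at 0.01, and between the other cultures in IMX2109 replicate 3, at -0.01. Feature length moved with part of this: over all tested features the median deviation of IMX2109 replicate 3 was 0.09 in the longest of 3 length classes, which starts at 1665 bases and holds LYS2, LYS14 and LYS4, and -0.01 in the shortest class. In IMX2109 replicate 1 these medians were -0.07 and 0.02, and in IMF17 all lay between -0.01 and 0.01. LYS12, with 1116 bases, belongs to the middle class, whose median in IMX2109 replicate 3 was 0.03. Of the longest class 14.3% of features were called lower in IMF17, against 29.2% of the middle class and 32.6% of the shortest, and the part of length in the results for LYS2 and LYS4 was not tested.

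**Figure D3:**
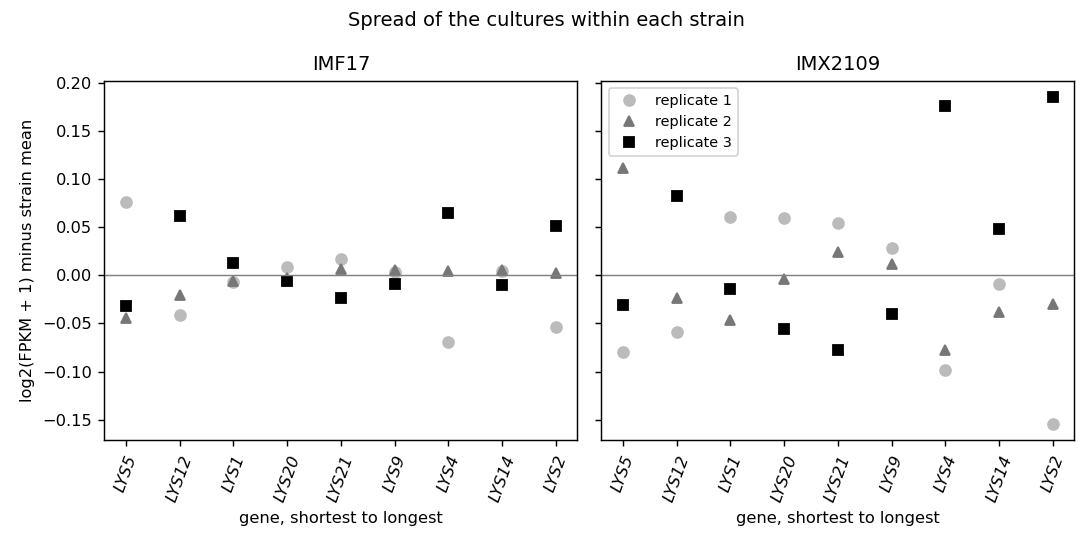
Deviation of each culture from the mean of its strain in log2(FPKM + 1), for the 9 genes from the shortest to the longest, IMF17 on the left and IMX2109 on the right. Replicate 3 of IMX2109 lies highest for LYS4 and LYS2, at 0.18, and lowest for LYS21, at -0.08.

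Of 3 further genes whose products serve the pathway from outside the 9, 2 fell, where 25.3% of all tested features were lower. ARO8, an aminotransferase that makes alpha-aminoadipate, and ODC2, a mitochondrial carrier that exports alpha-ketoadipate, fell by 1.14-fold and 1.13-fold (limma adjusted p = 0.00533 and 0.00708), and both calls were lost on nuclear reads (limma adjusted p = 0.124 and 0.155), that of ODC2 also under median-ratio rescaling (0.0628). The second carrier, ODC1, did not pass, at 55.7 and 58.2 FPKM. The median log2 fold change of the 3 was -0.18, against -0.07 over all tested features.

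The genes for the supply of alpha-ketoglutarate did not all move the same way. Of 9 genes for citrate synthases, aconitase and isocitrate dehydrogenases, CIT2 fell, CIT1, CIT3 and IDP2 rose and 5 did not pass. Over all tested features 25.3% were lower and 12.1% higher. The median log2 fold change of the 9 was 0.06, against -0.07 over all tested features. CIT2, the peroxisomal citrate synthase and a known target of the mitochondria-to-nucleus retrograde pathway, went from 543 ± 7.68 in IMX2109 to 363 ± 46.6 FPKM in IMF17 (limma adjusted p = 0.000133). CIT1, the mitochondrial enzyme, was 1.33-fold higher in IMF17 (limma adjusted p = 6.38e-05). ACO1, IDH1, IDH2, IDP1 and IDP3 did not pass, with log2 fold changes from -0.02 to 0.11. On nuclear reads IDH1 and IDH2 were called higher (limma adjusted p = 0.0208 and 0.0348), which made 1 lower and 5 higher. By that scaling 8.83% of all tested features were lower and 18.9% higher.

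Glutamate gives its amino group at 2 steps of lysine synthesis. GDH1, the main glutamate-forming dehydrogenase, and GLN1, glutamine synthetase, fell by 1.19-fold and 1.23-fold (limma adjusted p = 0.000368 and 0.00065). GDH2, the glutamate-degrading dehydrogenase, rose 1.19-fold (limma adjusted p = 0.00821). GDH3 rose from 3.71 to 4.82 FPKM (limma adjusted p = 0.0369), a call lost with any library but IMX2109 replicate 2 left out (limma adjusted p = 0.058 to 0.0955). GLT1 did not pass, and so 2 of 5 genes fell and 2 rose, where 25.3% of all tested features were lower and 12.1% higher. Under median-ratio rescaling and on nuclear reads GLT1 was called higher (limma adjusted p = 0.0299 and 0.0295), which made 2 lower and 3 higher. Of all tested features, 11.8% were lower and 16.3% higher by median ratio, and 8.83% and 18.9% on nuclear reads.

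Among regulators, GCN4 mRNA averaged 1888 ± 22.8 FPKM in IMF17, against 2117 ± 39.3 FPKM in IMX2109 (SD, n = 3), and fell by 0.16 on the log2 scale (limma adjusted p = 0.00439). Neither rescaling kept this call (limma adjusted p = 0.159 by median ratio and 0.207 on nuclear reads). Gcn4 is controlled chiefly at translation, which these data do not measure. MKS1, a repressor of the retrograde pathway whose loss raises lysine synthesis, RTG1, RTG2, RTG3 and the kinase gene GCN2 did not pass, with log2 fold changes no lower than -0.15.

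Transport and use of lysine were covered by 8 transporter genes and by lysyl-tRNA synthetases. LYP1, the specific lysine permease, did not pass, at 149 ± 4.97 FPKM in IMF17 against 157 ± 8.56 FPKM in IMX2109 (log2 fold change -0.08, limma adjusted p = 0.222). GAP1, the general amino acid permease, fell by 1.23-fold, and VBA1, YPQ1 and YPQ2, vacuolar transporters of basic amino acids, fell by 1.12-fold to 1.17-fold (limma adjusted p = 0.00128 to 0.0231). On nuclear reads only the call of GAP1 remained among these 4 (limma adjusted p = 0.0132). CAN1, the arginine permease, was 11.1-fold higher in IMF17, at 167 against 15.1 FPKM. All libraries were counted on IMF17 gene models, and whether the CAN1 sequence of IMX2109 differs was not tested. ALP1, a related permease at 2.47 and 1.73 FPKM, passed as higher only on nuclear reads among the 3 scalings (limma adjusted p = 0.0379). KRS1, the cytosolic lysyl-tRNA synthetase, fell by 1.19-fold on its full-length feature (limma adjusted p = 0.00414), a call lost under both rescalings (limma adjusted p = 0.0584 and 0.0593), and its mitochondrial counterpart MSK1 did not pass. Of 2 short features that share the name KRS1, the one at 354306 on chromosome 2 fell (limma adjusted p = 0.0494, lost under both rescalings) and the other did not pass.

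Leucine synthesis lengthens its precursor by related chemistry, so its enzymes can be set beside those of lysine. The log2 fold changes of LEU4 and LEU9, the synthases, were -0.13 and -0.29, beside -0.45 and -0.22 for LYS20 and LYS21. LEU1, the isomerase, was at -0.45, beside -0.27 for LYS4. LEU2, the dehydrogenase, was at -0.46 on its chromosome 3 feature, beside -0.24 for LYS12. Of 10 features of leucine synthesis, 3 of them named LEU2, 8 fell and BAT2 rose, with a median of -0.35, and 7 fell under either rescaling, which left LEU4 uncalled. Over all tested features 25.3% were lower, with a median of -0.07. After median-ratio rescaling 11.8% were lower, and on nuclear reads 8.83%. Of 8 measured genes of arginine synthesis 4 fell and 0 rose (median -0.16), and of 6 of histidine synthesis 3 fell and 0 rose (median -0.16). The 10 lysine features, with 7 lower and a median of -0.25, had a median between that of leucine and those of arginine and histidine. The leucine list holds LEU2 as 3 features, all lower, so its 8 is a count of features, not genes. The differences between lists were not tested.

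**Figure D4:**
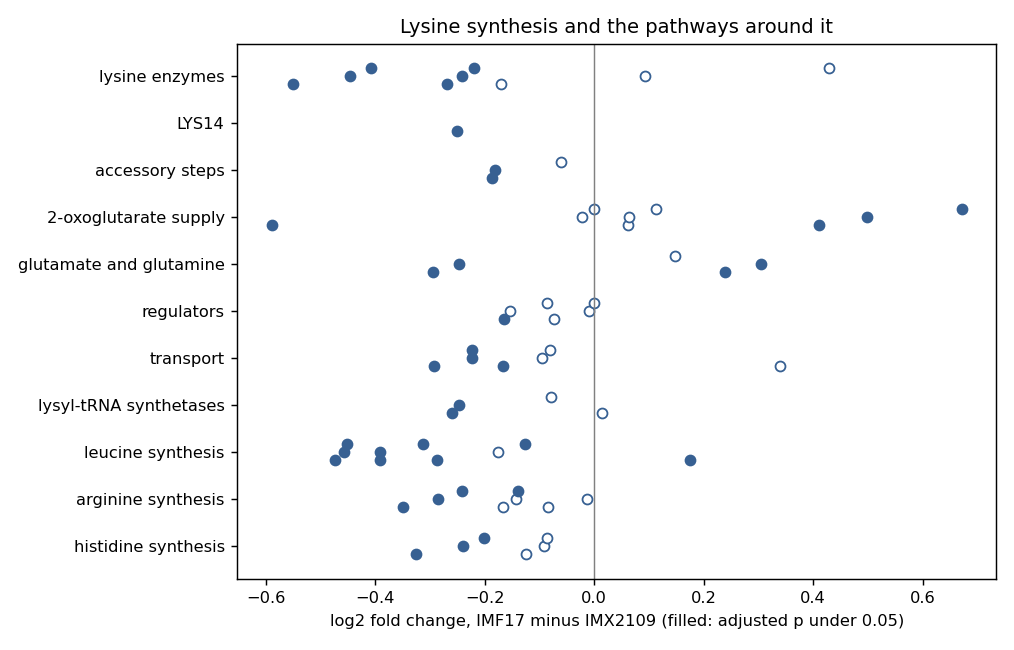
Log2 fold change (IMF17 minus IMX2109, log2(FPKM + 1)) of each feature of lysine synthesis and of the lists around it; filled circles have a limma adjusted p under 0.05. CAN1, a transporter at 3.39, lies off the scale and is left out; the open circle at 0.43 among the lysine enzymes is the short chromosome 7 feature.

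The features whose profile over the 6 libraries was most like the mean profile of the 9 genes were SER1, MIG1, HIS5, FET3 and ATR1, with Pearson correlations of 0.998 to 0.999 among 4956 features with a mean of at least 10 FPKM. The 6 libraries share the strain difference, and 448 of the 4956 features, 9.04%, reached a correlation of 0.95. SER1, of serine synthesis, averaged 545 ± 8.00 FPKM in IMF17, against 693 ± 15.9 FPKM in IMX2109 (SD, n = 3). HIS5, of histidine synthesis, stood at 375 ± 0.360 and 431 ± 7.25 FPKM. MIG1, a repressor of glucose-repressed genes, FET3, of iron uptake, and ATR1, a multidrug efflux gene, had log2 fold changes of -0.35, -0.70 and -1.01.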

How the data were processed

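FPKM tables were deposited by the authors, 1 per library. The authors used featureCounts, STAR 2.5.4a, SAMtools, DESeq2 and edgeR, per the submitters' processing notes, which do not say in what role, with which settings or with what use of strand. Per the file headers, all libraries were counted on gene models of a polished IMF17 assembly, so sequences that differ in IMX2109 can lose reads; positions are on that assembly. FPKM times length gave whole reads for 100% of values (tolerance 0.01 reads). Gene names came from the tables and, for 5497 features, by locus tag from the R64 annotation.

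With limma 3.58.1 (R 4.3.3; two-sided, prior variance trended on level), IMF17 was compared with IMX2109 on log2(FPKM + 1) for the 5425 features that averaged at least 1 FPKM, and p-values were adjusted over them all by Benjamini-Hochberg; all 10 lysine features passed this filter. Fold changes on this scale understate low genes. Alternatives were other pseudocounts and filters, rescalings, robust variances, voom, a block by replicate number, and omission of each library in turn. Apart from voom on recovered reads, no count-based test was run. The test was checked on simulated reads. The members and lists were chosen with earlier results of these data known. All 9 members and the 5 features with the most similar profile were named; genes of the lists past the threshold could be named, which of them are was chosen after their values were seen, as were other list genes, and the rest stand in the counts. VBA3 and ARG5,6 were not analysed here, and 1 gene of the lists is not reported here. The cultures of a strain came from a common stock, so p-values measure the spread between cultures.

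Python 3.11.15, pandas 2.3.3, numpy 2.4.6 and matplotlib 3.10.9 were used.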

Additional observations from a re-analysis of the deposited data

How the results depend on the processing

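Under 10 other settings for all libraries, 5 to 8 lysine features were called lower and 0 higher (limma), and leaving out a library gave 7 to 8 lower and 0 to 1 higher, the 1 being the short chromosome 7 feature named LYS2. LYS1, LYS20, LYS9, LYS12 and LYS14 kept their direction and call in all 16 alternatives, with log2 fold changes from -0.57 to -0.45 for LYS1, -0.47 to -0.35 for LYS20, -0.43 to -0.31 for LYS9, -0.27 to -0.15 for LYS12 and -0.27 to -0.16 for LYS14. LYS5 passed in none of them (0.05 to 0.19). Over all features the lower count fell to 639 under median-ratio rescaling and 480 on nuclear reads, from 1375. The higher count reached 1030 on nuclear reads, from 654. These rescalings moved the median log2 fold change of all features from -0.07 to -0.005 and 0.02. Why the nuclear share differs between the strains was not tested. The difference in the LYS20 share was -3.85 percentage points from recovered reads and -4.06 to -3.65 with a library left out, against -3.83. For the 59 features of the other lists, 940 combinations of a feature and an alternative setting were compared with the main result. Of these combinations 47 lost and 17 gained a call, and 0 reversed.

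Same-numbered cultures deviated together weakly or not at all (r = 0.10, -0.05 and 0.14), where differently numbered ones gave -0.15 to 0.10. The numbers were not taken as pairs. With the replicate block 8 lysine features were lower, LYS2 being the added gene (limma adjusted p = 0.02), among 1517 lower and 685 higher features. Not every culture correlated best with its own number. Each strain is represented by 3 cultures of 1 strain construct, and FPKM cannot show a change in total mRNA per cell.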
